A study of Mus musculus with 2 samples.

Results

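The 9 genes described here code for proteins that set and spread the heartbeat: the pacemaker channels Hcn2 and Hcn4, the connexins Gja1, Gja5 and Gjc1, the transcription factors Tbx3, Tbx18 and Shox2, and the adhesion protein Cntn2. They were chosen by name, and each symbol matched 1 identifier among the 55536 genes of the deposited gene tables. Earlier results of these data were known when the 9 genes and the marker lists below were chosen. All 9 were measured in both animals, and all 9 had enough reads to enter the comparison of animals.

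The study sequenced total RNA from heart tissue of 2 female B6CASTF1/J mice, F1 hybrids of C57BL/6 and CAST parents, aged 2 months. Both animals carry the same strain, sex, age and tissue labels and so form 1 group (n = 2) with 1 library each. The labels number them as biological replicates 1 and 2, called animal 1 and animal 2 here, name no chamber of the heart and give no treatment. They number the hearts separately but give both the same donor entry, so the SDs are between animals only as far as the replicate and heart numbers show. Libraries started from 300 ng of RNA, were depleted of ribosomal RNA and carried ERCC spike-ins, which are synthetic transcripts added in known amounts.

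Each beat starts in the sinoatrial node, where HCN channels open on hyperpolarisation and carry the inward "funny" current that brings a pacemaker cell back to threshold. Connexins assemble into gap junction channels that pass the impulse from cell to cell through the atria, the atrioventricular node, the His bundle with its Purkinje network, and the working myocardium. The T-box factors Tbx3 and Tbx18 and the homeobox factor Shox2 act in forming and keeping nodal tissue, which makes up a small part of the heart by mass. In bulk tissue, fewer cells of a type and less RNA per cell cannot be told apart.

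The members include close relatives, so a stretch of coding sequence is shown for each of the 5 channel and connexin genes to let their likeness be seen. The stretches were read from GENCODE M21 transcripts of mm10, 5′ to 3′ on the coding strand, and each is 90 bases (30 codons) long. In the pore of the HCN channels, the capitals mark the 3 codons of the selectivity signature, glycine, tyrosine and glycine. The Hcn2 stretch is chr10:79728899-79728988 on the plus strand (codons 382 to 411 of 863), and the Hcn4 stretch is chr9:58855531-58855620 on the plus strand (codons 460 to 489 of 1201).
Hcn2: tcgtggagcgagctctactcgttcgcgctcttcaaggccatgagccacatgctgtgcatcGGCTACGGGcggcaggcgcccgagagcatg
Hcn4: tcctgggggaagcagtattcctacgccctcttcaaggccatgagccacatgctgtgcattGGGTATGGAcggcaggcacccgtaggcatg
In the connexins the stretch codes for part of the first extracellular loop, which docks with the connexin of the neighbouring cell. Capitals mark the codons of its 3 conserved cysteines. The positions are chr10:56387679-56387768 on the plus strand for Gja1 (codons 45 to 74 of 382), chr3:97050761-97050850 on the plus strand for Gja5 (codons 45 to 74 of 358) and chr11:102800957-102801046 on the minus strand for Gjc1 (codons 44 to 73 of 396).
Gja1: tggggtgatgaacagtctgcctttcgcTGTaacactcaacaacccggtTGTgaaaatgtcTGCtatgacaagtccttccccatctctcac
Gja5: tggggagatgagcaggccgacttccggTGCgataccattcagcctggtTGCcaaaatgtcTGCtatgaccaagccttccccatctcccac
Gjc1: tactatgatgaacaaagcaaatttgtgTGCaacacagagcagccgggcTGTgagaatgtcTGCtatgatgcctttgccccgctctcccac
Hcn2 and Hcn4 were identical at 72 of the 90 aligned bases (80%), and the longest run shared by their full transcripts was 32 bases. Gja1 and Gja5 matched at 68 of 90 bases (75.6%) with a longest shared run of 18 bases. Gjc1 was further away, matching Gja1 at 57 of 90 bases (63.3%) and Gja5 at 54 (60%). The T-box pair Tbx3 and Tbx18 shared no run longer than 17 bases. The 32-base run of Hcn2 and Hcn4 lies inside the stretches shown. The deposited spread of read assignment within a library was 0 in both animals for 7 of the 9 genes. For Gja5 that spread was 2.72 reads in animal 1 and 1.38 in animal 2, and for Cntn2 it was 0.09 and 0 reads.

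Promoter windows of 250 bases before the annotated start were matched in the RefSeq table of GRCm38.p6 for 7 of the 9 genes: Hcn2, Hcn4, Gja1, Gja5, Tbx18, Shox2 and Cntn2. The windows of Hcn4 and Gja5 are shown because both genes are known to respond to T-box factors in the heart, and Tbx3 is among the members. The Hcn4 window is chr9:58822699-58822948 and the Gja5 window chr3:97032152-97032401, both on the plus strand and 5′ to 3′.
Hcn4: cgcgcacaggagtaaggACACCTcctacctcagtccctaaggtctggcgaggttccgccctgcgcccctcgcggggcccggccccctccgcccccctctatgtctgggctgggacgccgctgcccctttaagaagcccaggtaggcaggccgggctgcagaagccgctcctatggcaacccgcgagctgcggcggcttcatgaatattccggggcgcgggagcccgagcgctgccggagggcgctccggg
Gja5: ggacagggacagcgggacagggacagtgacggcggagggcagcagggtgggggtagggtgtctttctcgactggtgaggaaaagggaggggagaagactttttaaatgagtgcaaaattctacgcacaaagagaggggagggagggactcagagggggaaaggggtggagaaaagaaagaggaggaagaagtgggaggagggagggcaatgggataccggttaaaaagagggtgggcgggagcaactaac
Capitals in the Hcn4 window mark ACACCT, the reverse complement of the T-box half-site AGGTGT, which begins 233 bases before the RefSeq start. Searched on both strands, AGGTGT occurred in 3887 of 32851 RefSeq promoter windows (11.8%), and Hcn4 was the 1 member window of 7 that held it. The longer T-box core GGTGTGA, which overlaps the half-site, lay in 3.33% of all windows and in 0 of the 7. The NKX core AAGTG lay in 40.7% of all windows and in those of Gja5, Tbx18 and Cntn2, and TATAAA lay in 12.4% of all windows and in that of Shox2. These are matches of letters in a window, and a window without a match says only that the letters are not there.

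Levels are given as TPM, a relative abundance that sums to the same total in each library and corrects reads for transcript length and so allows levels of different genes to be set side by side. Libraries held 41862353 reads assigned to genes in animal 1 and 41789989 in animal 2, after rounding, and 3 reads corresponded to 0.0717 and 0.0718 CPM, which is reads scaled to a common library total. TPM of the median gene was shifted between the animals. The log2 of TPM in animal 1 over TPM in animal 2 had a median of -0.22 across the 16133 genes that held 20 reads or more. The share of TPM held by nuclear protein-coding genes was 38.7% in animal 1 and 45.6% in animal 2, while Rn7s1 and Rn7s2, which code for the RNA of the signal recognition particle, held 21.3% and 13.1%. For this reason the animals were compared on reads with library sizes scaled by the trimmed mean of M values (TMM), not on TPM. Every SD of TPM below includes the shift, and so does every TPM or summed TPM set beside that of the other animal.

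The comparison of animals is a two-sided exact binomial test on the reads of each gene, adjusted over all 16133 genes by the Benjamini-Hochberg method. It compares 2 libraries, not conditions, and has no replicate check: it sees counting error alone. At an adjusted p under 0.05 and at least 2-fold, 1.3% of all tested genes were apart between the animals (0.855% higher in animal 1 and 0.446% higher in animal 2), and 0 of the 9 members were. With no fold minimum 11.1% of all tested genes were apart beyond counting error, 4.65% higher in animal 1 and 6.5% higher in animal 2, and 1 of the 9 members was: Gja5, higher in animal 1. An unadjusted exact binomial p under 0.05 was reached by 4 members, Gja1, Gja5, Tbx3 and Cntn2. The share of all tested genes under that unadjusted threshold is not given here, so the 4 cannot be set beside the 11.1%. The split of the calls between the animals depended on scaling: with TMM 750 were higher in animal 1 and 1048 higher in animal 2, against 370 and 2943 with library sizes taken as total gene reads, which moved the median log2 ratio of all genes to -0.077. The median log2 ratio of reads over the 9 members was -0.022, beside 0.0023 over all genes tested, and the members ranged between -0.17 and 0.29, with 3 ratios above 1 and 6 below.

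**Figure D1:**
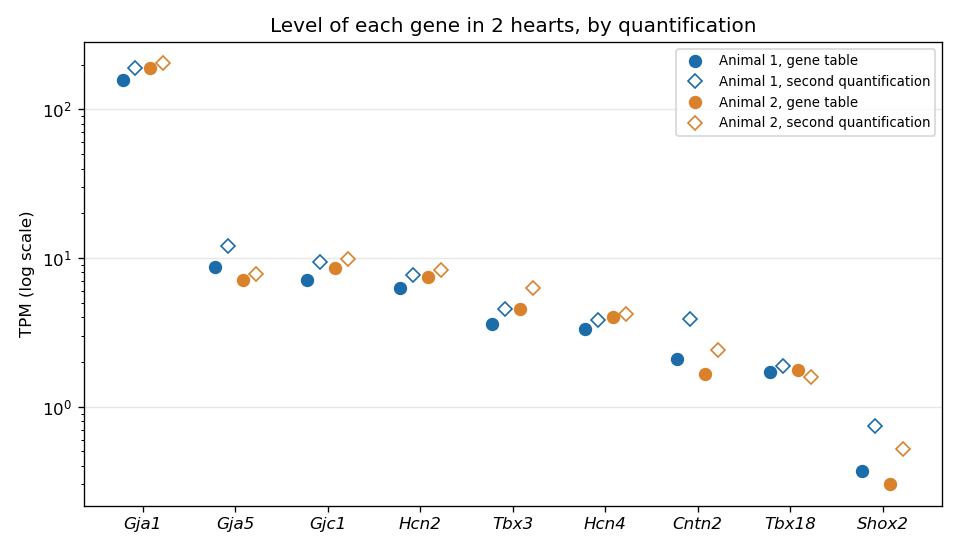
Level of each of the 9 genes in TPM on a log axis, ordered by mean level, with blue symbols for animal 1 and orange symbols for animal 2; filled circles are the gene table and open diamonds the second quantification. Gja1 lies at 157 and 189 TPM, 8 of the 9 genes lie at or above 1 TPM in both animals, and Shox2 lies lowest at 0.37 and 0.3 TPM.

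The members spanned a wide range of levels, with Gja1 far above the rest. By mean TPM the order was Gja1, Gja5, Gjc1, Hcn2, Tbx3, Hcn4, Cntn2, Tbx18 and Shox2. Gja1 stood 21.9-fold above the next gene, Gja5. The ranges over both animals overlapped in 4 of the 8 neighbouring pairs, namely Gja5 and Gjc1, Gjc1 and Hcn2, Tbx3 and Hcn4, and Cntn2 and Tbx18. Read within each animal, which removes the shift of TPM, Gjc1 lay above Hcn2 and Tbx3 above Hcn4 in both, while the order of Gja5 and Gjc1 and that of Cntn2 and Tbx18 changed between the animals. Hcn2 lay above Tbx3 in both animals without overlap, Hcn4 above Cntn2, and Tbx18 above Shox2. In all, 8 of the 9 genes reached 1 TPM in both animals, and the exception was Shox2. Among 21938 nuclear protein-coding genes, Gja1 ranked 318th by mean TPM, Gja5, Gjc1 and Hcn2 ranked between 5970th and 6439th, and Shox2 ranked 12735th. Per kilobase of the leading coding transcript, a scale chosen after the data were seen, the mean of Gja5 lay behind those of Gjc1 and Hcn2, and the ranges of Hcn2 and Gja5 overlapped.

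Both pacemaker channels were present, with the Hcn2 level about as far above Hcn4 in one animal as in the other. Hcn2 (ENSMUSG00000020331.9, chr10:79716634-79736108, plus strand), a fast-opening HCN channel found in atrial and ventricular myocytes as well as the node, had 6.29 TPM (722 reads) in animal 1 and 7.48 TPM (773 reads) in animal 2. Hcn4 (ENSMUSG00000032338.9, chr9:58823412-58863175, plus strand), the main HCN channel of the sinoatrial node, had 3.34 TPM (745 reads) in animal 1 and 4.01 TPM (806 reads) in animal 2. The TPM of Hcn2 was 1.88 times that of Hcn4 in animal 1 and 1.86 times in animal 2, a mean ratio of 1.87 ± 0.0127 (SD, n = 2). This SD of 2 ratios does not measure the counting error of each ratio. In the second quantification the ratio was 2.01 in animal 1 and 1.96 in animal 2. Hcn4 held slightly more reads than Hcn2 in each library, and its transcript is longer, 6118 bases against 3195 for Hcn2-202. Hcn3, another channel of the family, had 0.16 TPM (6 reads) in animal 1 and 0.11 TPM (7 reads) in animal 2, too few reads to be tested. The ratio of scaled reads, animal 1 over animal 2, was 0.985 for Hcn2 (95% interval 0.889 to 1.09; exact binomial test, Benjamini-Hochberg adjusted p = 0.963). For Hcn4 it was 0.975 (0.881 to 1.08; exact binomial test, Benjamini-Hochberg adjusted p = 0.886). Both of these intervals include 1.

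**Figure D2:**
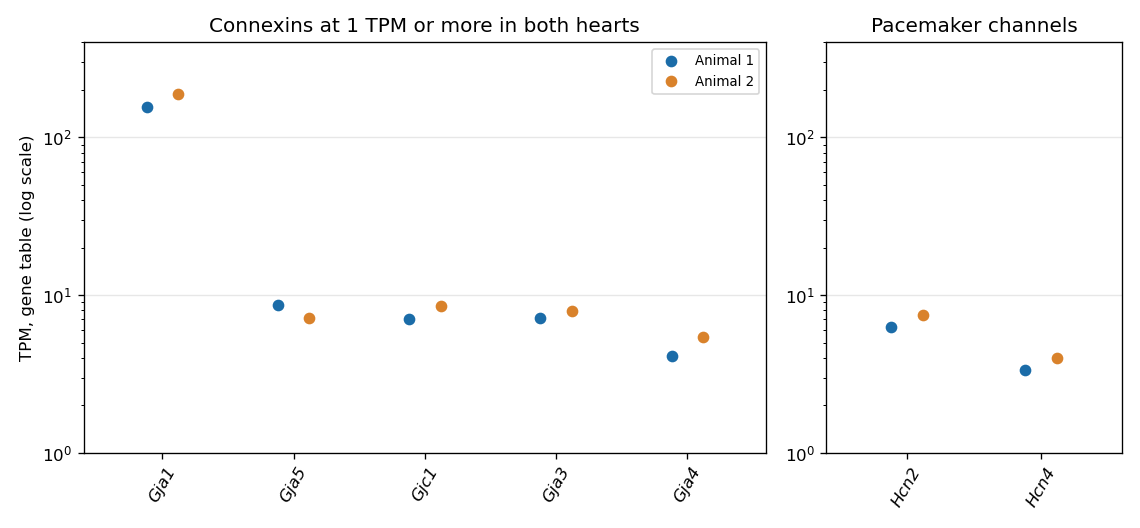
TPM on a log axis of the 5 connexin genes at 1 TPM or more in both hearts (left) and of the pacemaker channels Hcn2 and Hcn4 (right), with animal 1 in blue and animal 2 in orange. Gja1 stands alone at the top of the connexins, and Gja5, Gjc1, Gja3 and Gja4 lie between 4.08 and 8.65 TPM.

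Gja1 carried most of the connexin transcript. Gja1 (ENSMUSG00000050953.10, chr10:56377330-56402513, plus strand), the gap junction protein of the working myocardium, had 157 TPM (17266 reads) in animal 1 and 189 TPM (18646 reads) in animal 2, a mean of 173 ± 22.4 (SD, n = 2). It took 85% of the TPM of all 20 mouse connexin genes listed in animal 1 and 86.4% in animal 2 (85.7% ± 1.04, SD, n = 2). The ratio of scaled reads was 0.977 (95% interval 0.957 to 0.997), close to 1, and did not pass (exact binomial test, Benjamini-Hochberg adjusted p = 0.151). With library sizes taken as total gene reads the same reads gave a ratio of 0.924, past the threshold (exact binomial test, Benjamini-Hochberg adjusted p = 3.87e-12), and in the second quantification a ratio of 0.972 passed narrowly (adjusted p = 0.0497 by the same exact test). The call on Gja1 thus depended on scaling and quantification, while its ratio lay below 1 in each. With total gene reads 2943 of all 16133 tested genes were lower in animal 1 beyond counting error.

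Gja5 was the 1 member whose reads differed between the animals beyond counting error with TMM scaling. Gja5 (ENSMUSG00000057123.14, chr3:96904693-97077416, plus strand), the connexin of atrial myocytes, the His-Purkinje network and arterial endothelium, had 8.65 TPM (713 reads) in animal 1 and 7.16 TPM (614 reads) in animal 2. Its TPM was higher in animal 1, although the median log2 ratio of TPM, animal 1 over animal 2, was -0.22 over the tested genes. The ratio of scaled reads was 1.22 (95% interval 1.1 to 1.37), a log2 ratio of 0.29 (exact binomial test, Benjamini-Hochberg adjusted p = 0.00385). Under the other scalings, filters and the second quantification the ratio stayed between 1.16 and 1.22 and the exact binomial test with Benjamini-Hochberg adjustment kept it past the threshold, with adjusted p between 0.00385 and 0.0403. The ratio is well under 2-fold, and 4.65% of all tested genes were likewise higher in animal 1 beyond counting error.

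Markers of atrial myocytes moved the same way. All 4 of the atrial list were higher in animal 1 beyond counting error under each of the 3 scalings and in the second quantification. Over all 16133 tested genes 4.65% were so with TMM, 721 genes with DESeq2 size factors and 370 with total gene reads. In the second quantification 697 of 17213 tested genes were. The summed TPM of the atrial list was 1152 in animal 1 and 987 in animal 2. The ratios of scaled reads were 1.36 for Nppa, the atrial natriuretic peptide, 1.35 for Myl4 and 1.37 for Myl7, both atrial myosin light chains, and 1.54 for Sln, the inhibitor of the calcium pump in atria. None reached 2-fold. Markers of arterial endothelium, the other known source of Gja5 outside the conduction network, had a summed TPM of 19.2 in animal 1 and 23.9 in animal 2. On scaled reads with TMM their median log2 ratio was -0.0036, and 0 of the 4 were apart. With total gene reads Dll4 was lower in animal 1, as were 2943 of 16133 tested genes. The parts of atrial tissue and of arterial endothelium in the Gja5 difference were not tested.

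**Figure D3:**
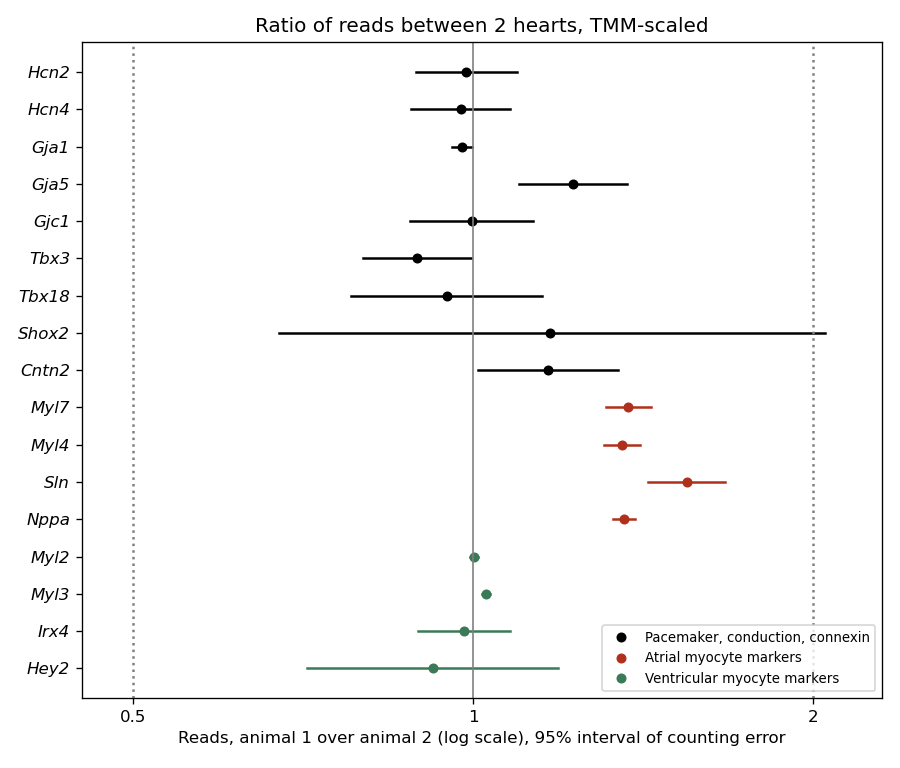
Ratio of scaled reads, animal 1 over animal 2, on a log axis, as points with 95% intervals of counting error, for the 9 genes (black) and for markers of atrial (red) and ventricular (green) myocytes; the solid line is a ratio of 1 and the dotted lines are 2-fold in either direction. Gja5 at 1.22 and all 4 atrial markers at 1.35 to 1.54 lie to the right of 1, and the intervals of 5 of the 9 genes include 1.

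Gjc1 was nearly equal in both hearts. Gjc1 (ENSMUSG00000034520.14, chr11:102799579-102819700, minus strand), a connexin of nodal cells that forms channels of low conductance, had 7.07 TPM (496 reads) in animal 1 and 8.55 TPM (525 reads) in animal 2. The ratio of scaled reads was 0.997 (95% interval 0.88 to 1.13; exact binomial test, Benjamini-Hochberg adjusted p = 1). The TPM of Gja1 was 22.2 times that of Gjc1 in animal 1 and 22.1 times in animal 2, so that this pair of connexins kept nearly the same proportion in both hearts. The proportion of Gja1 to Gja5 was less even, 18.1 in animal 1 and 26.4 in animal 2. Gja5 exceeded Gjc1 in animal 1 (TPM ratio 1.22) and lay below it in animal 2 (0.837), while per kilobase of the leading transcript it lay below Gjc1 in both (0.861 and 0.701).

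Of the 17 other connexin genes, 2 reached 1 TPM in both hearts and 8 had 0 reads in both. A count of 0 allows up to 3 reads, the 0.0717 and 0.0718 CPM given above, counting error only. Gja3, best known from the lens, had 7.19 TPM (550 reads) in animal 1 and 7.9 TPM (488 reads) in animal 2, a level inside the range of Gja5 and Gjc1 in the gene table. In the second quantification it had 6.83 and 5.91 TPM, below both. Its ratio of scaled reads was 1.19 (95% interval 1.05 to 1.35) and did not pass with TMM (exact binomial test, Benjamini-Hochberg adjusted p = 0.0525), although it did in the second quantification. Gja4, a connexin of arterial endothelium, had 4.08 TPM (240 reads) in animal 1 and 5.44 TPM (288 reads) in animal 2, a ratio of 0.879 (0.737 to 1.05) that did not pass (exact binomial test, Benjamini-Hochberg adjusted p = 0.447). Gjd3, a connexin reported in the mouse conduction system, had 0.29 TPM (8 reads) and 0.12 TPM (3 reads), too few to be tested.

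Of the transcription factors, Tbx3 lay above Hcn4 within each animal, with Tbx18 and Shox2 below Hcn4. The ranges of Tbx3 and Hcn4 over both animals overlapped in the gene table and per kilobase of the leading transcript. They did not overlap in the second quantification or with TPM over nuclear protein-coding genes. Tbx3 (ENSMUSG00000018604.18, chr5:119670669-119684724, plus strand), a repressor that keeps the working myocardial programme off in the conduction system, had 3.6 TPM (600 reads) in animal 1 and 4.57 TPM (710 reads) in animal 2. Its ratio of scaled reads was 0.891 (95% interval 0.798 to 0.995) and did not pass (exact binomial test, Benjamini-Hochberg adjusted p = 0.204). With total gene reads as library sizes the ratio of 0.844 did pass (exact binomial test, Benjamini-Hochberg adjusted p = 0.0149). Under that scaling 2943 of all 16133 tested genes were lower in animal 1 beyond counting error.

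Tbx18 (ENSMUSG00000032419.8, chr9:87702800-87731260, minus strand), a factor of the sinus node head that also marks epicardium and mural cells of vessels, had 1.71 TPM (202 reads) in animal 1 and 1.78 TPM (225 reads) in animal 2. Its ratio of scaled reads was 0.947 (95% interval 0.779 to 1.15; exact binomial test, Benjamini-Hochberg adjusted p = 0.871). Shox2 (ENSMUSG00000027833.16, chr3:66971727-66981771, minus strand), a factor of the sinus venosus and node that holds back Nkx2-5, had 0.37 TPM (30 reads) in animal 1 and 0.3 TPM (27 reads) in animal 2. Its ratio of scaled reads was 1.17 with a wide interval (0.673 to 2.05). The TPM of Tbx3 was 2.11 times that of Tbx18 in animal 1 and 2.57 times in animal 2.

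Cntn2 lay below Hcn4 in both hearts in the gene table, while in the second quantification it had 3.92 TPM in animal 1 and 2.4 TPM in animal 2, beside 3.82 and 4.23 TPM for Hcn4. Its mean TPM was 1.89 in the gene table and 3.16 in the second quantification. Cntn2 (ENSMUSG00000053024.14, chr1:132509427-132543256, minus strand), an immunoglobulin-type adhesion protein of axons that also marks the His-Purkinje network, had 2.1 TPM (415 reads) in animal 1 and 1.67 TPM (376 reads) in animal 2. Its ratio of scaled reads was 1.16 (95% interval 1.01 to 1.34) and did not pass (exact binomial test, Benjamini-Hochberg adjusted p = 0.189). Cntn2 is also made by neurons, and the part of neurons in its reads was not tested. The summed TPM of the 6 neuron markers was 3.46 in animal 1 and 5.86 in animal 2. Of these, 3 had enough reads to be tested, and 2, Uchl1 and Prph, were higher in animal 2 beyond counting error. Over all tested genes 6.5% were higher in animal 2 beyond counting error, and 0.446% were so at 2-fold. Prph, an intermediate filament of peripheral neurons, had 2 reads in animal 1 and 20 in animal 2. It was the 1 list gene apart by 2-fold, with a ratio of 0.128 (95% interval 0.012 to 0.434; exact binomial test, Benjamini-Hochberg adjusted p = 0.00311). The TPM of Prph was 0.08 and 0.35 in the gene table but 0.27 and 0.393 in the second quantification. On reads, Prph and Uchl1 stayed higher in animal 2 beyond counting error there. Of the sympathetic markers of that list, Th had 0 reads in both hearts and Dbh had 59 reads (0.65 TPM) in animal 1 and 76 reads (0.93 TPM) in animal 2. Schwann cell markers summed to 2.42 TPM in animal 1 and 2.84 TPM in animal 2, with 0 of 3 tested apart.

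Most members are annotated with several transcripts, and the deposited transcript tables divide some of them differently. The first transcript table is the one behind the gene levels and the second was quantified separately. Hcn4 has a single annotated transcript, and Hcn2-202 took 100% of Hcn2 in both tables and both animals. Its alternative Hcn2-201 adds no base of its own and lacks 106 bases.

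**Figure D4:**
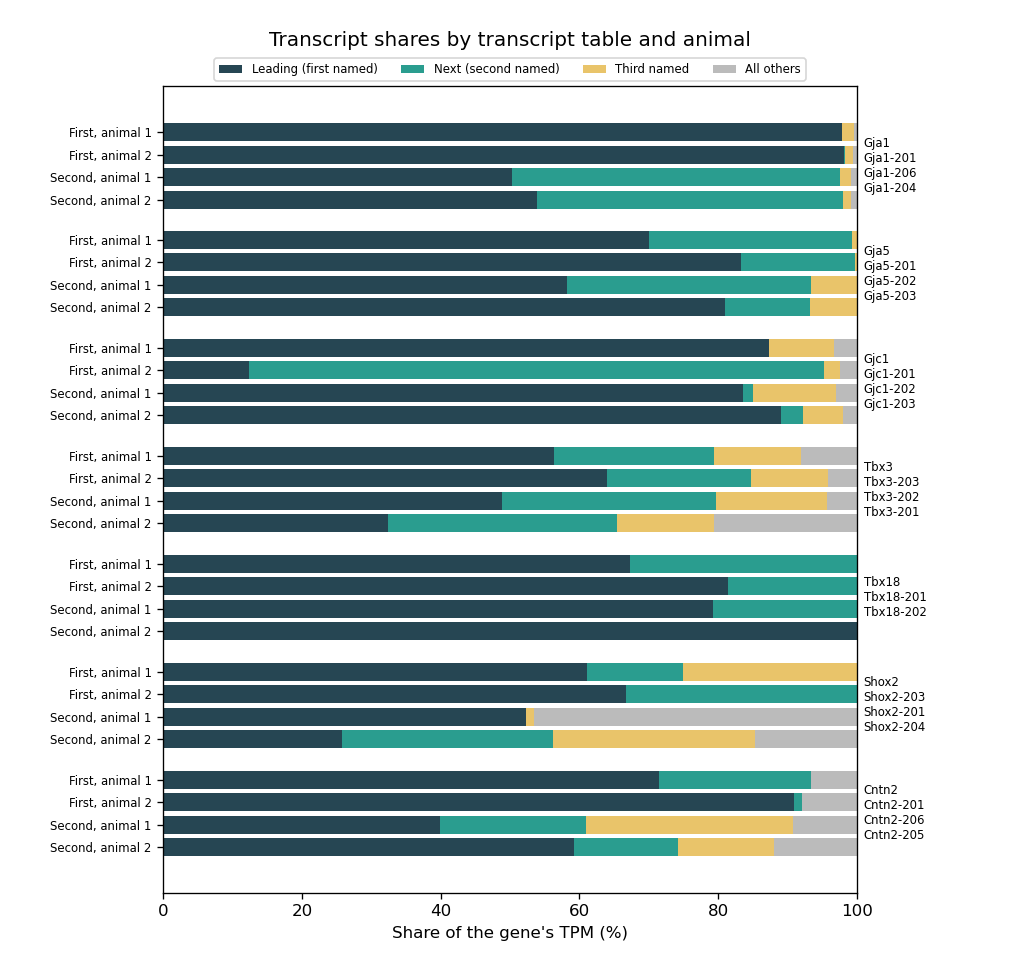
Share of each gene's TPM, in percent, held by its transcripts in the first and in the second transcript table, for the 7 genes in which more than 1 transcript had reads; the names at the right give the transcripts in the order of the bars' colours. In Gja1 the second table splits the gene between Gja1-201 and Gja1-206, and in Gjc1 the leading transcript of animal 2 changes between the tables.

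For Gja1 the first table gave Gja1-201 97.9% of the gene's TPM in animal 1 and 98.1% in animal 2. The second table gave it 50.3% and 54%, and gave 47.3% and 44% to Gja1-206, a transcript that starts further downstream, at position 56379088. The first table gave Gja1-206 0 and 31 reads, the second 9050 and 9097. Gja1-201 and Gja1-206 share 2882 bases and differ by 189 and 300 bases of their own. The gene level does not turn on this choice, since both transcripts belong to Gja1. A transcript with a retained intron, Gja1-204, took 1.66% in animal 1 and 1.21% in animal 2, and the second table gave 1.56% and 1.26%.

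For Gjc1 the first table placed 414 reads on Gjc1-201 in animal 1 and 63.5 in animal 2, against 0 and 423 reads on Gjc1-202. The deposited spread of that assignment was 94.3 and 63.6 reads for Gjc1-201 and 93.1 and 65.2 reads for Gjc1-202. The pair share 1693 bases, with 210 and 197 of their own. In the second table Gjc1-201 led in both animals with 83.6% and 89.1%. A switch between the animals thus appears in 1 table and not in the other, while the gene's reads have an assignment spread of 0.

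For Gja5 the leading transcript was Gja5-201, with 94.8% of the gene's reads in animal 1 and 97.6% in animal 2. The short Gja5-202, of 405 bases, took 4.03% and 1.94% of the reads but 29.3% and 16.4% of the TPM. These shares rest on 28.8 and 11.9 reads. Gja5 TPM thus rests in part on a short transcript with few reads, and per kilobase of Gja5-201 the gene had 5.66 CPM in animal 1 and 4.88 CPM in animal 2. The distal-start transcript Gja5-203 took 0.694% and 0.28% of the TPM in the first table and 6.63% and 6.69% in the second.

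Short transcripts weighed in the same way on Tbx18 and Cntn2. Tbx18-201 took 96.6% of the reads in animal 1 and 98.4% in animal 2 but 67.3% and 81.5% of the TPM, the rest going to Tbx18-202, of 423 bases, on 6.78 and 3.61 reads. Cntn2-201 took 95.1% and 95% of the reads and 71.4% and 91% of the TPM in the first table, but 39.8% and 59.2% of the TPM in the second. Cntn2-206, of 460 bases, held 21.9% of the TPM in animal 1 on 6.17 reads and 1.2% in animal 2 on 0.29 reads. In the second table the retained intron transcript Cntn2-205, of 696 bases, took 29.8% and 13.8% of the TPM, while the first gave it 0. Those shares rested on 15.2 and 4.35 reads, 3.4% and 1.08% of the gene's reads in the second table.

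Both tables assigned Tbx3 reads to several transcripts, of which Tbx3-201, Tbx3-202 and Tbx3-203 share between 4614 and 4633 bases in each pair. The deposited spread of the first assignment was 63.1 and 63.5 reads for Tbx3-203, beside 352 and 457 reads. For Tbx3-202 it was 51.2 and 62.5 beside 151 and 154 reads, and for Tbx3-201 48.7 and 47.6 beside 80.3 and 80.2 reads. In the first table Tbx3-203 took 56.4% of the TPM in animal 1 and 64% in animal 2, Tbx3-202 took 23.1% and 20.7%, and Tbx3-201 took 12.5% and 11.1%. The second table gave Tbx3-203 48.8% and 32.4%, beside 30.8% and 33% for Tbx3-202 and 16% and 14% for Tbx3-201. It also gave the retained intron transcript Tbx3-204, of 725 bases, 0% in animal 1 and 16.7% in animal 2. The 16.7% rested on 14.9 reads, 1.75% of the gene's reads in that table. For Shox2, Shox2-203 took 61.1% and 66.7% of the TPM, Shox2-201 13.9% and 33.3%, and Shox2-204 25% and 0%, all on the 30 and 27 reads of the gene. The second table gave Shox2-203 52.3% and 25.7%, Shox2-201 0% and 30.4%, Shox2-204 1.14% and 29.1%, and Shox2-205 39.6% and 0%. In that table the gene had 35 reads in animal 1 and 34 in animal 2. The 39.6% of Shox2-205, of 414 bases, rested on 1.19 reads, and the 29.1% of Shox2-204 on 4.08 reads.

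Some members overlap genes on the opposite strand, and no source used here says if reads were counted by strand. Gja5 shares 165 exonic bases with Gpr89 (779 reads in animal 1 and 862 in animal 2), none of them in Gja5-201, and also spans a pair of antisense genes, both at 0 reads. Tbx3 shares 115 exonic bases with Tbx3os1 (14 and 16 reads), and Tbx18 shares 970 with D030062O11Rik (2 and 1 reads). Shox2 shares 153 with Rsrc1 (406 and 404 reads), none of them in Shox2-203. Hcn2, Hcn4, Gja1, Gjc1 and Cntn2 overlap no other annotated gene.

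Of the 7 listed genes of nodal currents and their receptors, Kcnj3, Kcnj5 and Chrm2 lay above both Hcn2 and Hcn4 in TPM, and the other 4 did not. The list summed to 80.2 TPM in animal 1 and 86.5 TPM in animal 2. With TMM, 4 of the 7 were higher in animal 1 beyond counting error, 3 with DESeq2 size factors, 2 in the second quantification and 1, Kcnj5, with total gene reads. Over all 16133 tested genes, 4.65% were higher in animal 1 with TMM, and 370 genes were with total gene reads. Kcnj5 and Kcnj3, the subunits of the acetylcholine-gated potassium channel of atrial and nodal cells, had 20.6 and 23.6 TPM in animal 1 and 20.8 and 27.2 TPM in animal 2. Their ratios of scaled reads were 1.17 (exact binomial test, Benjamini-Hochberg adjusted p = 3.61e-08) and 1.07 (adjusted p = 0.0192 by the same exact test). Chrm2, the muscarinic receptor that opens this channel, had 26.7 TPM in animal 1 and 29.6 TPM in animal 2, a difference that did not pass. Cacna1g, a T-type calcium channel, had 5.88 TPM in animal 1 and 5.68 TPM in animal 2 with a ratio of 1.13 (exact binomial test, Benjamini-Hochberg adjusted p = 0.023), and Cacna1h, another T-type channel, was the remaining gene of the 4.

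Of the 14 conduction system factors and markers, 13 could be tested, of which 2 were higher in animal 1 and 1 in animal 2 beyond counting error, and 0 at 2-fold, beside 4.65% and 6.5% of all tested genes. Those higher in animal 1 were Tbx5 and Cpne5, and Smoc2 was higher in animal 2. The list summed to 91 TPM in animal 1 and 109 TPM in animal 2. Tbx5, a T-box activator of Gja5 and Nppa, had 11.2 TPM (1309 reads) in animal 1 and 9.95 TPM (1045 reads) in animal 2, a ratio of scaled reads of 1.32 (95% interval 1.22 to 1.43; exact binomial test, Benjamini-Hochberg adjusted p = 9.21e-10). Tbx5 was thus among the 4.65% of all tested genes higher in animal 1, and its part in the Gja5 difference was not tested. Nkx2-5, its cardiac homeobox partner, had 30.2 TPM in animal 1 and 38.3 TPM in animal 2, with a ratio of 0.925 that did not pass with TMM. It was lower in animal 1 beyond counting error with total gene reads, as were 2943 of all 16133 tested genes. Smoc2, a secreted matrix protein, had 17.7 TPM in animal 1 and 24.4 TPM in animal 2. The ratio of its scaled reads was below 1, at 0.864 (exact binomial test, Benjamini-Hochberg adjusted p = 0.000115). Irx3, a factor of the ventricular conduction system, had 7.89 TPM in animal 1 and 9.7 TPM in animal 2, which did not pass. The nodal factor Isl1 had 3 reads in animal 1 and 2 in animal 2.

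The 3 Popeye genes, cyclic AMP binding membrane proteins linked to pacemaking, summed to 193 TPM in animal 1 and 230 TPM in animal 2. With TMM, 0 of 3 were apart, and the median log2 ratio of their scaled reads was -0.027. Popdc2 had 171 TPM in animal 1 and 203 TPM in animal 2, at the height of Gja1, while Bves had 11.7 and 13.7 TPM and Popdc3 10.4 and 12.9 TPM. With total gene reads Popdc2 was lower in animal 1 beyond counting error, as were 2943 of all 16133 tested genes.

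Some markers of other cell types also moved between the animals, and their part in the values of the members was not tested. Over all tested genes 6.5% were lower in animal 1 beyond counting error. All 5 endothelial markers (Pecam1, Cdh5, Kdr, Tie1 and Emcn) were lower in animal 1 beyond counting error under each scaling, with a summed TPM of 133 in animal 1 and 179 in animal 2. Of the 8 smooth muscle and pericyte markers, 5 were lower in animal 1 (Myh11, Acta2, Rgs5, Kcnj8 and Pdgfrb), and the list summed to 284 TPM in animal 1 and 380 TPM in animal 2. Of the 5 fibroblast markers, 3 were lower in animal 1 (Dcn, Pdgfra and Col1a1), with a sum of 190 TPM in animal 1 and 248 TPM in animal 2. Of the 4 ventricular myocyte markers, 1 was apart beyond counting error, Myl3, with a ratio of scaled reads of 1.03 that lay below 1 with total gene reads. The ventricular list summed to 10629 TPM in animal 1 and 12382 TPM in animal 2, sums that include the shift of TPM. On scaled reads with TMM its median log2 ratio was -0.013. That median was -0.20 for the endothelial, -0.25 for the smooth muscle and pericyte and -0.11 for the fibroblast list. The 4 epicardial markers summed to 16.9 TPM in animal 1 and 17.1 TPM in animal 2 with 0 apart, and the 3 lung markers held 4 and 5 reads in all.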

How the data were processed

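Each library has a deposited gene table and a first transcript table with expected counts, which are estimated reads per feature and not normalised, and with TPM, computed by the authors over all entries, spike-ins included. Per the file headers these tables have the layout of RSEM, and per the deposited readme they come from transcriptome alignments with the M21 annotation of mm10. They also hold the posterior standard deviation of each count, the spread of read assignment within 1 library. The second transcript table, deposited by the authors in the layout of kallisto, holds estimated counts and TPM from a read file. No source used here names the tools' versions or says if counting used strand.

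The gene table has 81881 entries. Of these, 26248 carry no gene identifier and together had 4 reads, 9.5e-06% of the library, in animal 1 and 2 reads, 4.76e-06%, in animal 2. They stayed out of library sizes and tests, as did spike-ins. After rounding of the expected counts, genes with 20 or more reads over both libraries were tested. Library sizes were scaled by TMM in edgeR 4.0.16 (R 4.3.3). The two-sided exact binomial test with Benjamini-Hochberg adjustment at 0.05, with and without a minimum of 2-fold, and exact 95% intervals used scipy 1.17.1 in Python 3.11.15. Ratios used a prior count of 0.5. The comparison was tested on simulated data. Intervals and limits describe counting error alone, because reads have no molecular identifiers. All samples form 1 group, so there is no test between groups.

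The members and lists were chosen with earlier results of these data known, so the counts given for them are not independent of those results. Named genes were all 9 members, up to 4 genes per list by mean TPM, each list gene past 2-fold, and up to 3 transcripts per member by share. Isl1, Th, Dbh and list genes named only as members of a count were chosen after their values were seen. No gene was named for likeness of pattern, since 2 samples give a single ratio. Alternatives were library sizes by total gene reads, size factors of DESeq2 1.42.0, no filter, a prior count of 1, the second quantification, TPM over nuclear protein-coding genes, each animal alone and, chosen after the data were seen, reads per kilobase of the leading coding transcript. Some genes of the lists are not reported here.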

Additional observations from a re-analysis of the deposited data

How the results depend on the processing

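The count of members at least 2-fold apart was 0 and the count at 1 TPM or more in both animals was 8 under every alternative run for them. With library sizes by total gene reads, 3313 of 16133 tested genes were apart beyond counting error, against 1798 with TMM. Among the members 3 were (Gja5, Gja1 and Tbx3), against 1. In the second quantification 1859 of 17213 tested genes were apart, and 2 members were (Gja5 and Gja1). There the log2 ratio of Gjc1 turned to 0.030, against -0.0051 in the gene table. Neither Gjc1 ratio passed the test, and the cause of the turn was not tested. Neighbours with overlapping ranges in the order of levels numbered 2, against 4, in the second quantification, with TPM over nuclear protein-coding genes, and per kilobase of the leading transcript. Counts of genes 2-fold apart lay between 170 and 244. Mean TPM moved by more than its SD for 7 of 9 members in the second quantification, and the share of the leading transcript for 5 of 9. With either animal alone, 8 members reached 1 TPM, and the ratio between animals has no such value. No paired analysis was possible because there is a single group. Depth limits Shox2 most, at 30 and 27 reads, and 2 animals limit every SD.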
